A study of Mus musculus with 9 samples.

Results

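Tissue factor, thrombomodulin and the plasminogen activator genes were followed in MH-S cells, a mouse alveolar macrophage line, as 8 genes taken by symbol from a table of 14771: F3, Thbd, Procr, F7, F10, Plau, Plaur and Serpinb2. All 8 were in the table and among the 11281 genes with counts enough to be tested. The set was chosen by measured values, namely F3 lower and Thbd higher in SUR than in LPS, so every value of these 8 genes in that comparison is a description without a test. RNA was sequenced in 3 groups of 3 libraries. SUR cells are labelled with suramin, a polysulfonated drug, and nothing else. Since the protocol gives 200 µM suramin in combination with LPS (1 µg/ml, 4 h), SUR cells are taken to have had both agents. LPS cells received 1 µg/ml LPS, the bacterial lipopolysaccharide that activates the receptor TLR4, for 4 h. CON cells received the culture medium. No group of suramin without LPS was analysed here, all cells come from a single line, and no label says that replicates were separate cultures, so p-values measure the spread between these libraries, which may be technical.

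Blood clotting starts when tissue factor, the membrane protein encoded by F3, meets factor VII (F7) in plasma, and the complex activates factor X (F10), which leads to thrombin. Thrombomodulin (Thbd) is a membrane protein that binds thrombin and turns it toward activating protein C, an anticoagulant protease presented by the endothelial protein C receptor (Procr). Clots are dissolved by plasmin, which urokinase (Plau), held on the cell by its receptor (Plaur), releases from plasminogen; Serpinb2 encodes an inhibitor of urokinase. Activated macrophages are a known source of tissue factor in inflamed lungs, where fibrin collects in the air spaces.

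Library totals ran from 15729402 to 16675250 counts. The libraries numbered 1 stood apart in every group, with scores of 24.2 to 30.3 on the second principal component of log2 CPM against -20.6 to -8.50 for the others. Of 20 macrophage markers, 17 were in the table and Siglec5, Ear2 and Car4 were not. Of the 20, 14 averaged at least 1 TPM, among them Lyz2, Adgre1 and Csf1r. Markers of alveolar macrophages in the list were split. Marco, Chil3 and Pparg were at or near 0, with at most 0.06, 0.08 and 0.63 TPM in any library. Fabp5, Fabp4 and Itgax were read in every library, at 587 to 1416, 12.6 to 17.0 and 2.82 to 5.01 TPM. No marker of epithelium, endothelium and fibroblasts, lymphocytes and neutrophils, or hepatocytes averaged 1 TPM, and no such list summed to more than 2.59 TPM in SUR, 1.99 TPM in LPS or 1.76 TPM in CON. The list of 5 megakaryocyte and platelet markers differed, because 2 of them, Pf4 and Ppbp, averaged at least 1 TPM. That list summed to 407 to 576 TPM in SUR, 389 to 568 TPM in LPS and 369 to 526 TPM in CON. In bulk RNA, fewer cells of a kind and less RNA per cell cannot be told apart.

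The 250 bases before the RefSeq transcription start (GRCm38.p6, plus strand, written 5′ to 3′) are shown for the 4 members that stood higher in every LPS library than in any SUR or CON library, because their levels went the same way. They are F3 at chr3:121723287-121723536, Plaur at chr7:24462233-24462482, Serpinb2 at chr1:107511173-107511422 (the first of its 2 listed starts) and Procr at chr2:155750967-155751216. Only the F3 window ends just before the deposited gene start. Those of Plaur and Serpinb2 lie inside the deposited gene spans, which begin at 24460937 and 107500892. The Procr window runs past the deposited start at 155751125. For these genes the RefSeq start used is thus not the deposited gene start. Capitals mark matches on either strand to letters of 4 known motifs, namely TGANTCA (AP-1), GGNNTTTCC (kappaB), GGGCGG (GC box) and GCGGGNG (EGR).
F3: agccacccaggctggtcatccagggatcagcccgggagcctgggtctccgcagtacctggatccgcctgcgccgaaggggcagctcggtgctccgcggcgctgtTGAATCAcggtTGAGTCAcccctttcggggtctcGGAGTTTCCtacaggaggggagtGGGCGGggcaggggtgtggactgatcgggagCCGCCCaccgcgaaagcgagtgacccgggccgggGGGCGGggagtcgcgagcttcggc
Plaur: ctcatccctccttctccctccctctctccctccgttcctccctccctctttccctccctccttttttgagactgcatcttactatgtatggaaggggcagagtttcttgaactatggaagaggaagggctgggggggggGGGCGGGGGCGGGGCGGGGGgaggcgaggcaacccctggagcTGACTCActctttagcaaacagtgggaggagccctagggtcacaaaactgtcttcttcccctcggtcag
Serpinb2: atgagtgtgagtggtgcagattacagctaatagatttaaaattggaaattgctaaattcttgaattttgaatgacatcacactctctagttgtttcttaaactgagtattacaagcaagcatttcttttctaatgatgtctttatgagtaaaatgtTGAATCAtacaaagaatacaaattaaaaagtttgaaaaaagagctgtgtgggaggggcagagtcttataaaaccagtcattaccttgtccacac
Procr: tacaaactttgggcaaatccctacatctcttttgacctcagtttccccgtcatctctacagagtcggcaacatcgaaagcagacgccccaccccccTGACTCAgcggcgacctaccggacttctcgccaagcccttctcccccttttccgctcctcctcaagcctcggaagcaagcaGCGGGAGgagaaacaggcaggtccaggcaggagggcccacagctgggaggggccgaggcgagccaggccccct
The F3 window held 2 AP-1 matches, at 146 and 135 bases before the start, a kappaB match at 112 bases and 3 GC boxes. Plaur held 1 AP-1 match at 69 bases, 3 GC boxes of which the second and the third share a base, and 2 EGR matches that lie across the GC boxes. Serpinb2 held 1 AP-1 match at 94 bases, and Procr 1 AP-1 match at 154 bases and 1 EGR match. Entries were found for 6 of the 8 members; F7 and F10 had no match to any of the 4 motifs, and Thbd and Plau had no entry. Over all 32851 promoters of the same length, 6.75% held the AP-1 letters, 4.93% the kappaB letters, 32.7% a GC box and 22.5% the EGR letters. The motifs were chosen with the F3 result known, and a match in letters shows neither binding nor regulation.

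F3 (gene ID 14066; chromosome 3, 121723537 to 121735052, plus strand, GRCm38), which encodes tissue factor, was counted at 7, 11 and 13 reads in SUR 1 to 3, at 46, 92 and 99 reads in LPS 1 to 3, and at 8, 5 and 10 reads in CON 1 to 3. Scaled to library size, these are 0.4035, 0.6505 and 0.760 CPM in SUR, 2.92, 6.26 and 6.53 CPM in LPS and 0.467, 0.304 and 0.595 CPM in CON. Every LPS library lay above every SUR and every CON library, LPS 1 was the lowest of the LPS libraries, and SUR and CON overlapped. In LPS against CON, F3 rose 11.3-fold (3.50 on the log2 scale, SE 0.41) at an adjusted p of 0.000494 in the quasi-likelihood F test of edgeR, Benjamini-Hochberg adjusted (n = 3 libraries per group). LPS exceeded CON by 2.37, 3.90 and 3.21 within replicate numbers 1, 2 and 3, on log2 CPM with a prior count of 2. Without the libraries numbered 1 the log2 fold change was 3.81. In SUR against LPS, the contrast that chose the gene, F3 was 8.56-fold lower (log2 fold change -3.10, SE 0.39), by -2.53, -3.05 and -2.915 within the numbers. SUR against CON was not called (log2 fold change 0.40, 95% interval -0.70 to 1.498, adjusted p = 0.952).

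Thbd (gene ID 21824; chromosome 2, 148404471 to 148408188, minus strand), a gene of 1 exon that encodes thrombomodulin, ran the other way. It had 19, 30 and 32 reads in SUR, 5, 5 and 4 reads in LPS and 17, 31 and 17 reads in CON, or 1.10, 1.77 and 1.87 CPM in SUR, 0.317, 0.340 and 0.264 CPM in LPS and 0.992, 1.89 and 1.01 CPM in CON. All LPS libraries lay below all others, while SUR and CON overlapped. In LPS against CON, Thbd fell 4.14-fold (log2 fold change -2.05, SE 0.41, adjusted p = 0.00785, edgeR), by -1.34, -2.12 and -1.555 within numbers 1, 2 and 3. In SUR against LPS it was 5.04-fold higher (log2 fold change 2.33, SE 0.40), by 1.47, 2.04 and 2.37 within the numbers. No call was made in SUR against CON (0.29 on the log2 scale, 95% interval -0.45 to 1.02, adjusted p = 0.939). These are low counts: the 3 LPS libraries together held 14 Thbd reads, with an exact Poisson 95% interval of 7.65 to 23.5 that covers counting error only, against 81 in SUR and 65 in CON.

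The per-length levels of the pair, in TPM, can be set against each other within a library. The ratio of F3 to Thbd was 0.788, 0.788 and 0.881 in SUR 1 to 3, 20.4, 39.3 and 52.0 in LPS 1 to 3, and 1.00, 0.341 and 1.26 in CON 1 to 3. Tissue factor mRNA thus exceeded thrombomodulin mRNA in each LPS library and lay below it in each SUR library, while in CON it was equal to it, below it and above it. Because F3 and Thbd were picked for moving in opposite directions in SUR against LPS, the ratio carries no test.

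**Figure D1:**
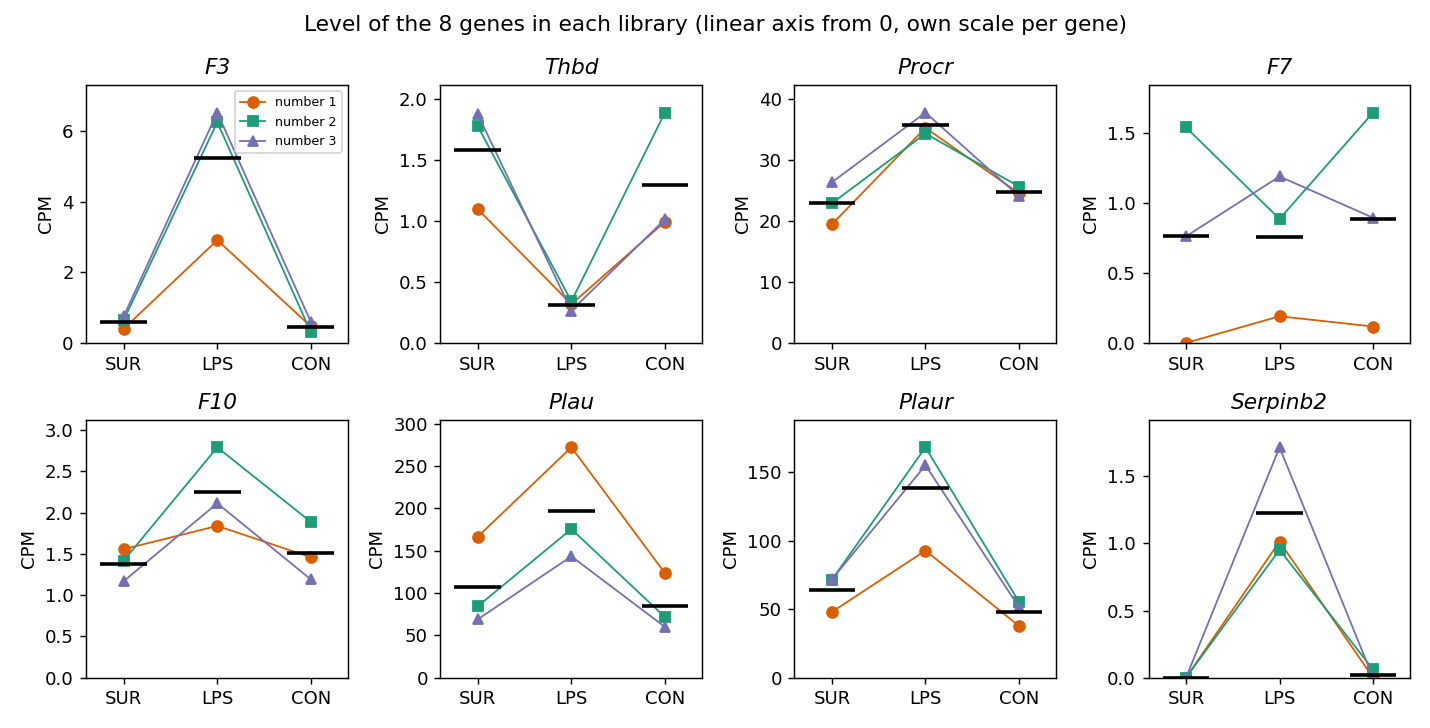
Level of each of the 8 genes in CPM (vertical axis, linear from 0, own scale per gene) in the SUR, LPS and CON groups, with 1 point per library, lines joining libraries of the same replicate number, and black bars at the group means. F3, Plaur, Procr and Serpinb2 were highest and Thbd lowest in the 3 LPS libraries; the libraries numbered 1 were highest for Plau in every group and lowest for F7.

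Procr (gene ID 19124; chromosome 2, 155751125 to 155755478), the protein C receptor gene, belongs with Thbd by function but not by direction. It stood at 19.4, 22.9 and 26.3 CPM in SUR, 35.25, 34.3 and 37.75 CPM in LPS and 24.5, 25.6 and 24.1 CPM in CON. LPS libraries lay above both other groups. In LPS against CON, Procr rose 1.45-fold (log2 fold change 0.53, SE 0.11, adjusted p = 0.00851, edgeR), with 0.52, 0.42 and 0.65 within the numbers. SUR was 1.56-fold below LPS (log2 fold change -0.64, SE 0.11), and SUR against CON was not called (-0.11, 95% interval -0.36 to 0.13, adjusted p = 0.9055).

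The clotting factors that tissue factor acts on were scarce in these cells. F10 (gene ID 14058; chromosome 8, 13037308 to 13056676) had 27, 24 and 20 reads in SUR, 29, 41 and 32 in LPS and 25, 31 and 20 in CON. LPS libraries lay above SUR libraries and overlapped CON. F10 was not called in LPS against CON (log2 fold change 0.57, 95% interval -0.01 to 1.14, adjusted p = 0.175), but with the replicate number as a block its adjusted p was 0.0485. SUR lay below LPS by a log2 fold change of -0.70 (SE 0.25). F7 (gene ID 14068; chromosome 8, 13025506 to 13035809) lies 1499 bases upstream of F10 on the same strand. It had 0, 26 and 13 reads in SUR, 3, 13 and 18 in LPS and 2, 27 and 15 in CON. The low library was number 1 in every group, and the groups overlapped in all comparisons. F7 differed by -0.23 on the log2 scale in LPS against CON (95% interval -2.61 to 2.16, adjusted p = 0.938) and by -0.20 in SUR against CON (-2.54 to 2.14, adjusted p = 0.9985). Without the block these intervals are too wide to show a change of less than several-fold. With the replicate block the SE fell from 1.05 to 0.41 in LPS against CON (log2 fold change -0.20, adjusted p = 0.7355, edgeR). In SUR against CON it fell from 1.03 to 0.40 (log2 fold change -0.22, adjusted p = 0.771), so F7 was not called there either.

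Urokinase and its receptor were the most abundant members. Plau (gene ID 18792; chromosome 14, 20836662 to 20843388) stood at 166.5, 84.4 and 68.9 CPM in SUR, 272, 175 and 143 CPM in LPS and 124, 71.5 and 59.9 CPM in CON. Number 1 was the highest library in each group. LPS libraries were all above CON libraries, but SUR and LPS overlapped. Without a block Plau was not called in LPS against CON (log2 fold change 1.21, SE 0.40, adjusted p = 0.0685, edgeR). It was called with the replicate block (1.23, SE 0.06, adjusted p = 1.03e-07), and the difference within numbers 1, 2 and 3 was 1.14, 1.29 and 1.26. It was also called without CON 1 (adjusted p = 0.0299), without SUR 1 (0.0291), without all libraries numbered 1 (4.12e-06) and when only the 6 LPS and CON libraries were fitted (0.0481). Those 5 of 18 alternatives, the block included, called Plau, and the other 13 did not. Among the 13 were DESeq2, limma-voom and leaving out CON 2 (adjusted p = 0.203) or CON 3 (0.215). Between SUR and LPS the log2 fold change was -0.88 (SE 0.39), or -0.71, -1.055 and -1.05 within numbers. Against CON, SUR differed by 0.33 (95% interval -0.56 to 1.22, adjusted p = 0.950), and 0.30 with the block, where it was called (adjusted p = 0.0145).

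Plaur (gene ID 18793; chromosome 7, 24460937 to 24475970), which encodes the urokinase receptor, had 48.0, 71.4 and 71.8 CPM in SUR, 92.75, 168 and 155 CPM in LPS and 37.7, 55.3 and 51.5 CPM in CON. Number 1 was the lowest library in each group, opposite to Plau. LPS libraries lay above all SUR and CON libraries. Plaur rose 2.88-fold in LPS against CON (log2 fold change 1.52, SE 0.25, adjusted p = 0.00303, edgeR), by 1.30, 1.60 and 1.59 within numbers. SUR was 2.17-fold below LPS (log2 fold change -1.12, SE 0.25). Plaur was not called in SUR against CON without the block (0.40, 95% interval -0.16 to 0.97, adjusted p = 0.747); with the block it was (0.40, SE 0.06, adjusted p = 0.00303), as it was without the libraries numbered 1 (0.42, adjusted p = 0.00332), and SUR was higher by 0.35, 0.37 and 0.48 within the 3 numbers. The ratio of Plau to Plaur in TPM was 2.10, 0.709 and 0.575 in SUR, 1.77, 0.629 and 0.555 in LPS and 1.97, 0.783 and 0.698 in CON, so that it split the libraries numbered 1 from the others in each group rather than the groups from each other.

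Serpinb2 (gene ID 18788; chromosome 1, 107500892 to 107525600), a plasminogen activator inhibitor gene, was read in LPS cells and next to nowhere else. It had 0, 0 and 0 reads in SUR, 16, 14 and 26 reads in LPS, and 0, 1 and 0 reads in CON. It passed the filter on low counts through its LPS libraries, so it had to differ in order to be tested, and no p-value is given for it. The 56 reads in LPS against 1 read in CON gave a ratio of 61.8 after scaling, with an exact Poisson 95% interval from 10.6 to 2480 that covers counting error only. In SUR it was at least 21-fold lower than in LPS, taking 3 counts over the group as the limit that a count of 0 allows. No fold is given for SUR against CON, where both groups are at or below that limit. In the GENCODE annotation, where its span is 107511423 to 107535478, Serpinb2 overlaps Serpinb10 on the same strand. The overlap was not tested for the deposited span or for the gene models used in counting, which are not given. Reads in any sequence that those models share cannot be assigned by position alone.

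Leaving out Serpinb2, 3 of the other 7 members rose (F3, Procr and Plaur) and 1 fell (Thbd) in LPS against CON, where 18.3% of all tested genes were called (8.98% rose and 9.36% fell) and 32% had groups that did not overlap. That split of all genes depends on scaling: 1013 rose and 1056 fell with TMM, 765 and 1709 with upper-quartile scaling, and 677 and 2048 on log2(FPKM + 0.5). In SUR against LPS the splits were 1048 rose and 895 fell, 1595 and 616, and 1983 and 515 under the same 3 settings. With the replicate block, 6 of these 7 members were called in LPS against CON, where 41.8% of all genes were. In SUR against CON edgeR called 0 members, and 0 were at an unadjusted p under 0.05; DESeq2 and limma-voom also called 0, and the block called 2 (Plau and Plaur), against 0.425% of all genes without the block and 11.5% with it. In SUR against LPS, again leaving out Serpinb2, the groups did not overlap for F3, Plaur, F10 and Procr, lower in SUR, and for Thbd, higher in SUR. The same held for 34.9% of all genes, and the members were chosen on that contrast. Serpinb2 did not overlap either, but it passed the count filter only through its LPS libraries, so it had to differ. Each of these comparisons shares the libraries of a group with each other one, so the tests of F3 and Thbd against CON are not independent of how they were chosen.

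**Figure D2:**
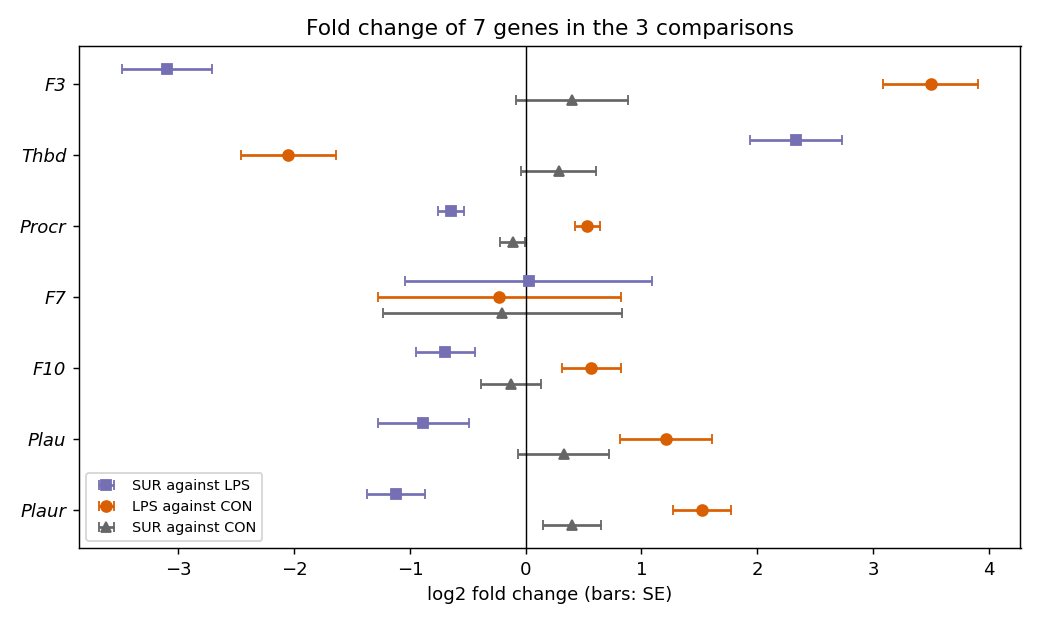
Log2 fold change (horizontal axis) with its SE for 7 of the genes in SUR against LPS (squares), LPS against CON (circles) and SUR against CON (triangles), from a single fit of 9 libraries; Serpinb2 is left out because SUR had no read. F3 is at -3.10 in SUR against LPS, 3.50 in LPS against CON and 0.40 in SUR against CON, and Thbd at 2.33, -2.05 and 0.29.

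By per-length level, Plau and Plaur led in every group. In SUR the order by mean TPM was Plau (81.9 ± 42.9), Plaur (80.4 ± 15.6), Procr (31.4 ± 3.53), F10 (0.900 ± 0.145), F7 (0.750 ± 0.750), Thbd (0.720 ± 0.174), F3 (0.593 ± 0.168) and Serpinb2 at 0 (SD, n = 3). In LPS it was Plaur (158 ± 43.5), Plau (136 ± 49.4), Procr (44.5 ± 2.16), F3 (4.62 ± 1.71), F10 (1.33 ± 0.271), Serpinb2 (1.02 ± 0.341), F7 (0.673 ± 0.447) and Thbd (0.127 ± 0.0153). In CON it was Plau (63.8 ± 26.9), Plaur (59.5 ± 9.98), Procr (32.85 ± 0.382), F10 (0.960 ± 0.205), F7 (0.850 ± 0.716), Thbd (0.580 ± 0.208), F3 (0.440 ± 0.151) and Serpinb2 (0.0167 ± 0.0289). Plau and Plaur overlapped in each group, as did the neighbours F10, F7, Thbd and F3 in SUR and CON. In LPS, F3 stood next after Procr and overlapped with no other member, F10 overlapped with Serpinb2 and Serpinb2 with F7, and Thbd was the lowest, below every library of every other member.

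**Figure D3:**
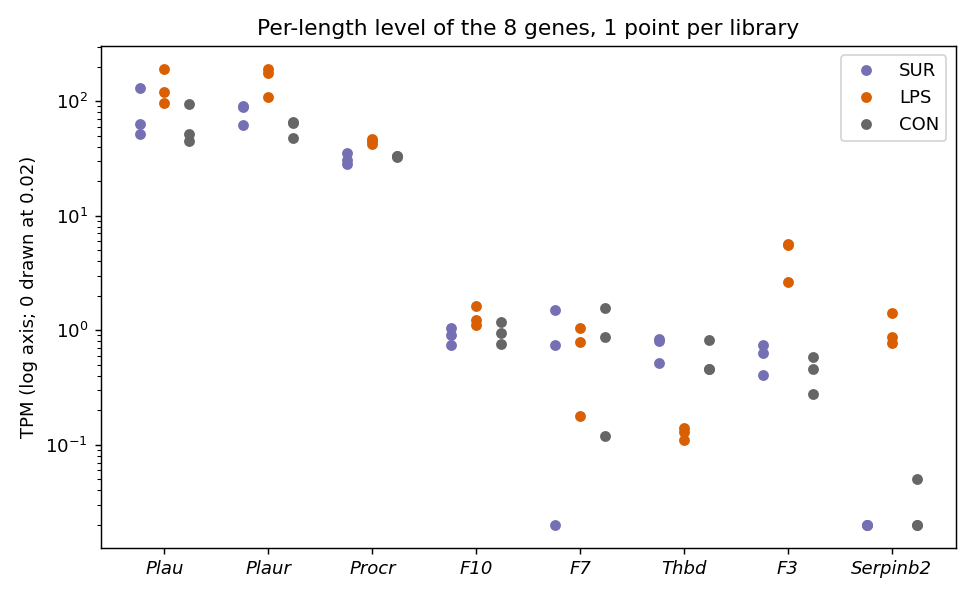
TPM of each member (vertical axis, log scale, with 0 drawn at 0.02) in each library, SUR left of LPS and LPS left of CON. Plau, Plaur and Procr lie above 28 TPM in all libraries, whereas the other 5 members lie below 6 TPM.

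Over the 9 libraries, the genes whose log2 CPM was most like that of F3, among the 7731 genes whose log2 CPM averaged 4 or more, were Paf1 (Pearson r = 0.995), Stk40 (0.994), Rabgef1 (0.993), Itpkb (0.993) and Samd4b (0.991). Most like Thbd were D1Ertd622e (0.988), Zadh2 (0.979), Trappc11 (0.970), Fam3c (0.965) and H2bc21 (0.963). All of these were measured in the same libraries, and for each of these genes the LPS libraries did not overlap with the SUR or the CON libraries, so the values are descriptive. The steps differed in size: F3 changed by 3.50 in LPS against CON, and the log2 fold changes of its 5 nearest genes ran from 0.54 (Paf1) to 2.23 (Stk40). Ranked by Spearman's rho, 1 of the 5 genes nearest to F3 and 2 of the 5 nearest to Thbd were the same. Among the members themselves, F3 correlated over the 9 libraries at 0.940 with Plaur, 0.941 with Serpinb2, 0.903 with Procr and -0.893 with Thbd. With F10, Plau and F7 the values were 0.716, 0.594 and 0.189. F3 and Thbd were chosen for moving in opposite directions in SUR against LPS, and Serpinb2 passed the count filter only through its LPS libraries. These correlations are therefore descriptive.

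Other genes of clotting and fibrinolysis were read from a list of 74, of which 55 were in the table and 43 were tested. The list also takes in transcription factors known to act on the F3 or Thbd genes, which make up 18 of the 43. Plat, which encodes tissue-type plasminogen activator, had 1, 8 and 5 reads in SUR, 38, 68 and 64 reads in LPS and 2, 1 and 1 reads in CON. Like Serpinb2 it passed the filter on low counts only through its LPS libraries, so it had to differ, and its difference is given without a test. The summed reads, scaled to library size, were 13.7-fold lower in SUR than in LPS (exact Poisson 95% interval 7.93 to 25.5) and 46.9-fold higher in LPS than in CON (18.0 to 174), intervals that cover counting error only. Anxa2, which encodes a plasminogen-binding annexin, fell in SUR against LPS (-0.39, adjusted p = 0.0334), a call lost under 9 of 18 alternatives, namely upper-quartile scaling, both FPKM settings, the fit of 6 libraries, and leaving out LPS 2, LPS 3, SUR 1, SUR 2 or SUR 3 (adjusted p up to 0.117).

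Of 9 tested coagulation factors and cofactors, 1 was called in LPS against CON and 1 in SUR against LPS, or 11.1% each. Over all tested genes 18.3% and 17.2% were called, so this part was not called more often. Both calls were of Ggcx, the carboxylase that vitamin K-dependent factors need. It fell 1.52-fold in LPS against CON (-0.61, SE 0.12, adjusted p = 0.00714, edgeR) and rose 1.52-fold in SUR against LPS (0.60, SE 0.12, adjusted p = 0.00867). F5, which encodes the cofactor of factor X, stood at 96.8 ± 36.3 TPM in SUR, 90.1 ± 32.9 TPM in LPS and 98.1 ± 39.75 TPM in CON (SD, n = 3). Tfpi, which encodes the inhibitor of tissue factor and factor VII, stood at 28.0 ± 2.48 TPM in SUR, 27.5 ± 3.32 TPM in LPS and 29.3 ± 1.74 TPM in CON. Its log2 fold change was -0.13 in SUR against LPS (95% interval -0.32 to 0.05, adjusted p = 0.322) and 0.08 in LPS against CON (-0.11 to 0.26, adjusted p = 0.641). Of 3 tested inhibitors, 1 rose with LPS, where 8.98% of all tested genes rose. It was Anxa5, a phosphatidylserine-binding annexin gene (0.19, adjusted p = 0.0486, edgeR). The Anxa5 call was lost under 14 of 18 alternatives, among them upper-quartile scaling, FPKM and leaving out any 1 library. Decryption is the step by which tissue factor on the cell surface becomes active. Of 6 genes tied to it, 1 was called in each of these comparisons, or 16.7%, beside 18.3% and 17.2% of all tested genes. That gene was Plscr1, a phospholipid scramblase gene. It rose 2.50-fold in LPS against CON (1.32, SE 0.16, adjusted p = 0.000519, edgeR) and fell 2.26-fold in SUR against LPS (-1.18, SE 0.15, adjusted p = 0.00129). Protease-activated receptors were untested: 1 of 4 was in the table, at too few counts.

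Transcription factors known to act on the F3 or Thbd genes were the most often called part of the list, with 12 of 18 higher and 0 lower in LPS against CON, and 4 higher and 8 lower in SUR against LPS, where 18.3% and 17.2% of all tested genes were called. Their median log2 fold change was 1.25 and -0.453, beside -0.00881 and -0.0059 over all tested genes. Rel, an NF-kappaB subunit gene, stood at 90.3 ± 3.98 CPM in SUR, 315 ± 1.90 CPM in LPS and 44.8 ± 17.5 CPM in CON. It rose 7.04-fold in LPS against CON (adjusted p = 8.76e-05, edgeR) and fell 3.49-fold in SUR against LPS (adjusted p = 0.00104). The other large rises with LPS were in Klf6 (5.26-fold), the AP-1 subunit gene Fosl1 (4.16-fold) and its relative Junb (3.83-fold). Fosl1 and Klf6 fell in SUR against LPS, 3.50-fold and 2.55-fold. Fos, another AP-1 subunit gene, rose in that comparison (1.31 on the log2 scale, adjusted p = 0.000294), with 70.4 ± 8.11 CPM in SUR, 28.4 ± 2.71 CPM in LPS and 22.9 ± 2.88 CPM in CON. In SUR against CON 5 of these genes rose and 0 fell, where 0.425% of all genes were called; with the block 12 rose, where 11.5% of all genes were called. These were Egr1 (2.77, adjusted p = 0.00493), Fos (1.62, adjusted p = 0.00477), Fosb (1.39, adjusted p = 0.0495), Klf6 (1.05, adjusted p = 0.0495) and Klf2 (0.76, adjusted p = 0.0375), which is known to act on Thbd in endothelium. Klf2 stood at 62.3 ± 3.51 CPM in SUR, 42.8 ± 5.70 CPM in LPS and 36.9 ± 3.84 CPM in CON. All 5 calls were lost without CON 2 (adjusted p from 0.0668 to 0.218), and those of Fosb, Klf6 and Klf2 also without CON 3, without LPS 2 or LPS 3 and without any 1 SUR library. Leaving out 1 library ended the calls of Fosb and Klf6 in 8 cases each and that of Klf2 in 7. Over all 18 alternatives these calls were lost in 12 for Fosb, 9 for Klf6 and 8 for Klf2.

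**Figure D4:**
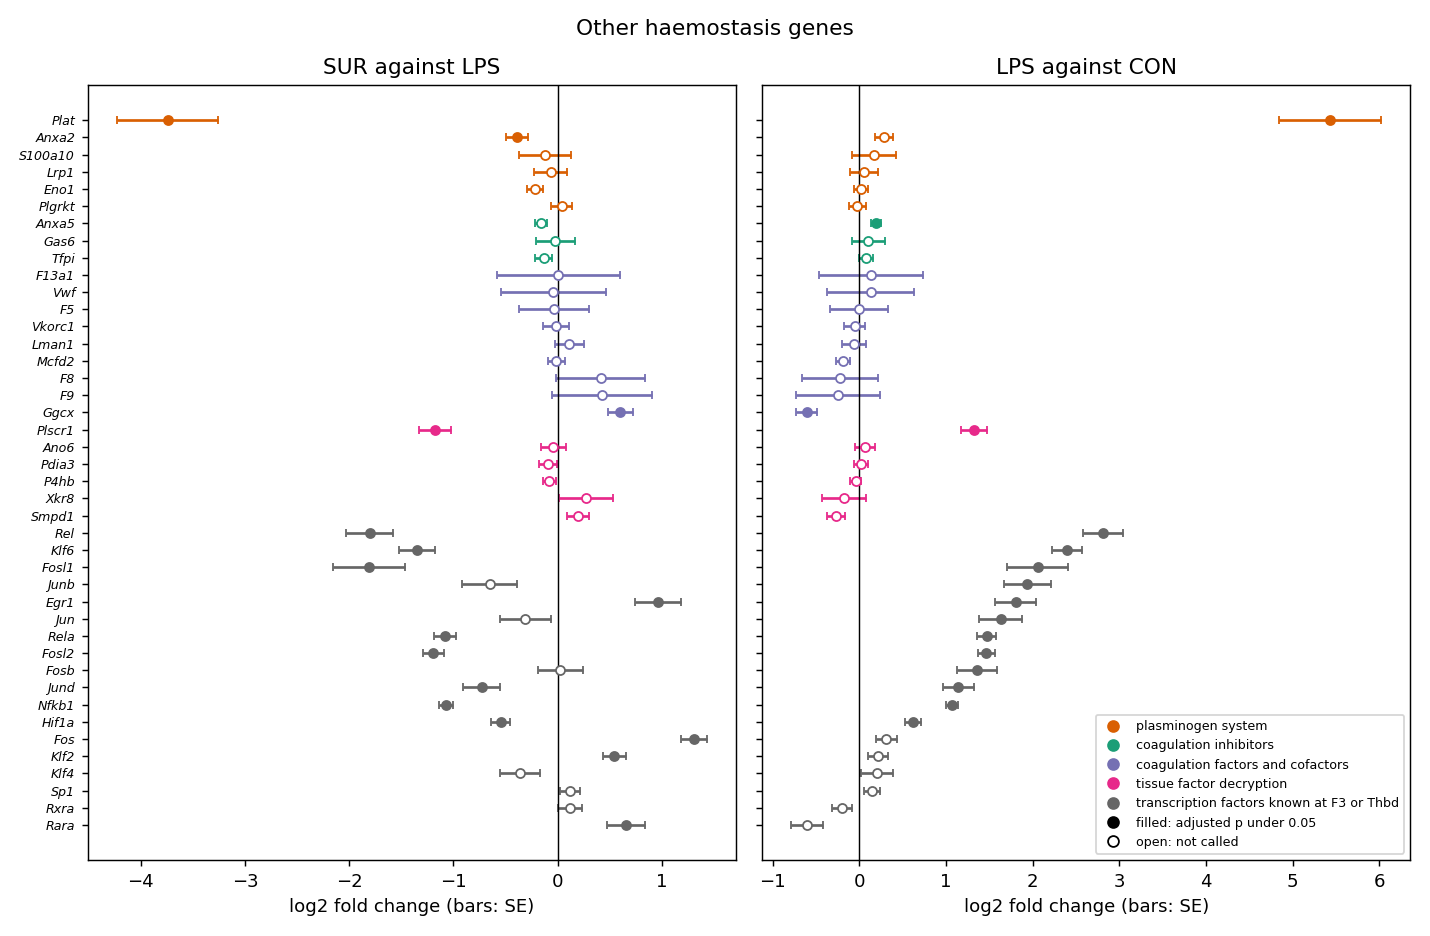
Log2 fold change (horizontal axes) with its SE for other tested genes of the list, transcription factors included, in SUR against LPS (left) and LPS against CON (right), coloured by gene group and filled where the adjusted p was under 0.05. Plat, at -3.74 on the left and 5.43 on the right, lies farthest from 0 of the genes drawn in both panels; it passed the count filter only through its LPS libraries.

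Over the 42 tested genes of the list other than Plat, 15 rose and 1 fell in LPS against CON, or 38.1%, beside 18.3% of all tested genes. Upper-quartile scaling and both FPKM settings gave 15 and 4 with Plat counted, where TMM gave 16 and 1. In SUR against LPS 5 rose and 11 fell, also 38.1%, beside 17.2% of all genes (9.29% rose and 7.93% fell); with the block 24 were called, where the block called 45.3% of all genes. In SUR against CON 5 rose and 0 fell, or 11.9%, beside 0.425% of all genes (0.39% rose and 0.0355% fell). Without the block, transcription factors gave 12 of the calls in LPS against CON, 12 in SUR against LPS and all 5 in SUR against CON. Of the other list genes, Plat included, LPS against CON called 1 of 9 coagulation factors and cofactors and 1 of 3 inhibitors. It also called 2 of 7 plasminogen genes and 1 of 6 decryption genes. In SUR against LPS these parts had 1, 0, 3 and 1 called, and in SUR against CON 0. Plat is 1 of the 2 and 1 of the 3 plasminogen genes called. It had to differ in order to be tested, so its calls carry no weight. The higher shares thus rest mainly on the transcription factors. The list was chosen with results of these data known, so these shares are descriptive.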

How the data were processed

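RNA-seq was analysed for 9 libraries of MH-S cells, 3 per group. HISAT2 2.0.4 and the build GRCm38 (mm10) are named by the submitters' processing notes. As for counting tool, strandedness and gene models, they were not given in the sources used here. Per the file headers, the authors deposited expected counts, taken as unnormalized gene totals; 93.4% were whole numbers with no remainder, and the others were rounded. The deposited TPM and FPKM values were scaled by the authors for length and depth, per the file headers; TPM served for levels between genes and FPKM for an alternative.

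Genes passing filterByExpr (11281 of 14771) were scaled by TMM and tested with edgeR 4.0.16 (quasi-likelihood F test, R 4.3.3), two-sided, in a single fit of the 9 libraries, with Benjamini-Hochberg adjustment over all tested genes at 0.05. CPM are counts over TMM-scaled library size. Standard errors were derived from the F statistic and intervals from its degrees of freedom. Intervals and limits on counts cover counting error only. Every same-numbered pair of libraries across groups deviated together (correlations of deviations from group means 0.435 to 0.801), so the replicate number was also fitted as a block. Pairs of number 2 with number 3 also correlated, at 0.347 to 0.437, and pairs of number 1 with either at -0.643 to -0.521, so the numbers set mainly number 1 apart from the others. The alternatives were upper-quartile scaling, DESeq2 1.42.0, limma 3.58.1 (voom, and log2(FPKM + 0.5) or + 0.1), no low-count filter, the block, fits of 6 libraries and libraries left out. Sequences come from RefSeq (GRCm38.p6), and figures were drawn with matplotlib 3.10.9.

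The 8 members and the gene lists were chosen with earlier results of these data known. From each list, up to 4 called genes with the largest change were named per comparison; F5, Tfpi and Klf2 were named after their values were seen. A gene of the list is counted but not reported here. The 8 members were always named, with the 5 genes most like F3 and Thbd.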

Additional observations from a re-analysis of the deposited data

How the results depend on the processing

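Alternatives were 18 in number: scaling, tool, filter, unit, replicate block, fitting the 6 libraries of a comparison, and leaving out 1 library or the libraries numbered 1; for the named list genes they were added after seeing the data. The calls of F3, Thbd, Plaur and Procr in LPS against CON held in all 18. Log2 fold changes for F3 ran from 3.28 to 3.79 in LPS against CON, from 0.184 to 0.633 in SUR against CON and from -3.39 to -2.88 in SUR against LPS when 1 library was left out, and for Thbd from -2.21 to -1.68, 0.125 to 0.652 and 2.20 to 2.54. Both contrasts with LPS shrank on FPKM, since a pseudocount understates the change of low genes. On log2(FPKM + 0.5) the LPS against CON values were 2.11 for F3 and -0.591 for Thbd, and the SUR against LPS values -1.94 and 0.73. On log2(FPKM + 0.1) they were 2.96 and -1.37 in LPS against CON, and -2.63 and 1.62 in SUR against LPS.

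With the replicate block 4714 genes were called in LPS against CON, 5109 in SUR against LPS and 1302 in SUR against CON, where the fit without it called 2069, 1943 and 48. The block called 2 members in SUR against CON and 15 list genes there. It added calls for Plau, Plaur and F10 and ended no call of a member. Without the libraries numbered 1 the counts were 3415, 3390 and 594, with 1 member and 12 list genes in SUR against CON. DESeq2 called 259 genes and 9 list genes in SUR against CON, and the fit of 6 libraries 4 and 2. Leaving out 1 library gave 1378 (without CON 3) to 2067 genes in LPS against CON, and 1208 (without SUR 2; 1254 without SUR 3) to 2022 in SUR against LPS. In SUR against CON it gave 0 (without CON 2) to 168 (without CON 1), with 4 to 24 without CON 3, LPS 2, LPS 3 or any SUR library. For the list, Plat included, the ranges were 16 to 17, 13 to 18 and, in SUR against CON, 0 (without CON 2) to 7, with 2 without CON 3, LPS 2, LPS 3 or any SUR library. For the 8 members, Serpinb2 included, they were 5 to 6 in LPS against CON and 0 in SUR against CON. On log2(FPKM + 0.5) the median gene shifted by -0.134 in LPS against CON and by 0.134 in SUR against LPS. Depth limits Thbd, F7, F10, Serpinb2 and F3, which had at most 99 reads in any library.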

Other observations

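Vwf, the gene of von Willebrand factor and a usual marker of endothelium and platelets, was read at 34.9 ± 15.3 TPM in SUR, 32.8 ± 14.5 TPM in LPS and 32.4 ± 13.7 TPM in CON (SD, n = 3), although the endothelial markers Pecam1, Cdh5 and Tek were at most at 0.07, 0.08 and 0.02 TPM in any library. Its level followed the replicate number, at 89.5, 93.45 and 89.4 CPM in SUR 1, LPS 1 and CON 1 against 216 to 247 CPM in the others. F5 ran the other way, at 612, 628 and 651 CPM in the libraries numbered 1 of SUR, LPS and CON and at 342 to 367 CPM in the others. Pf4, which encodes a platelet chemokine, was read at 367.5 to 575 TPM. The other markers of megakaryocytes and platelets were far lower. Ppbp, also a platelet chemokine gene, was at 0.57 to 2.17 TPM and Itga2b at 0.09 to 0.35 TPM, while the platelet receptor genes Gp9 and Gp1bb were at most at 0.15 and 0.06 TPM. Vwf, F5 and Pf4 were named after their values were seen. Their part in the differences of the members between replicate numbers was not tested.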
